A study of Mus musculus with 8 samples.

Results

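The mouse ribosomal protein gene Rpl13a carries 4 small nucleolar RNAs (snoRNAs) and 1 annotated microRNA (miRNA) in its introns: Snord32a, Snord33, Snord34, Snord35a and mmu-mir-5121. They were chosen by position, as the rows of both count tables that lie in a short window around Rpl13a (chromosome 7, 45125558 to 45128761 of the mm10 genome), and they are 5 of the 5518 rows. The study used target-enrichment sequencing, TEsR, to count small RNAs: linkers are ligated to both RNA ends, caps are removed, and the amplified molecules are captured with probes without a size selection and read on a MiSeq. Ribosomal RNA had been depleted before capture, and the study set TEsR beside TruSeq small RNA sequencing on a HiSeq. TEsR was run on mouse embryonic fibroblasts (MEFs, 4 libraries) and mouse embryonic stem (MES) cells (2 libraries), and TruSeq on MEFs (2 libraries).

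All MEFs carried a conditional knockout allele of TRF2, a protein that protects telomere ends, and Rosa26-CreERT2, a Cre recombinase expressed from a ubiquitous locus and activated by 4-hydroxytamoxifen. Induced MEFs had received 0.6 µM of that drug for 48 hours. Of the MEF samples read by TEsR, 2 were induced and 2 uninduced, but the columns carry the codes mm and pm, which the labels do not explain. The libraries are therefore called MEF mm 1, mm 2, pm 1 and pm 2, they enter as 1 group, and induced and uninduced cells cannot be told apart here. Both TruSeq samples are titled induced, and they are named by their indexes, ATCACG and CGATGT. The MES cells were grown without feeder cells, with leukaemia inhibitory factor, and are labelled as not induced. The tables hold small RNAs only, so deletion of TRF2 could not be checked from them.

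Total counts over annotated small RNAs were 3221641 to 3768668 in the MEF TEsR libraries, 2676776 to 2785150 in MES and 8442960 to 8961221 in TruSeq. The leading pair of rows took 67.8% to 83.1% of each library, so that the share left to all other rows, given here as CPM (counts per 1000000 counts of the library), moves with a few abundant snoRNAs. The labelled cell types were checked on miRNA lists. Pluripotent-cell miRNAs (21 rows) summed to 670 to 751 CPM in MES, to 0 to 2.12 CPM in MEF TEsR and to 0 in TruSeq. Fibroblast miRNAs (9 rows) summed to 4621 to 20728 CPM in MEF TEsR, 133 to 143 CPM in MES and 52.9 to 89.3 CPM in TruSeq, where they were below their level in MES. Epithelial miRNAs (6 rows) summed to 90.8 to 96.9 CPM in MES, 1.86 to 5.09 CPM in MEF TEsR and 0 in TruSeq, neural and liver miRNAs had no count, and muscle and blood miRNAs stayed at or below 4.56 CPM. In such bulk samples, fewer cells of a type and less RNA per cell cannot be told apart. Whether replicate libraries stem from separate cultures is not stated in the labels, and p-values then measure only how far these samples spread, which may be technical.

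Rpl13a encodes a protein of the large ribosomal subunit. Its snoRNAs are of the box C/D class: after splicing, the intron is trimmed down to a short RNA that binds a small set of proteins, fibrillarin among them, and guides ribose methylation of ribosomal RNA by base pairing. The C box lies near one end, the D box near the other, and the guide stretch stands directly before the D box or a related internal box. The Rpl13a snoRNAs are also known from work on cell death caused by saturated fatty acids, in which loss of these snoRNAs made cells resistant. A miRNA, by contrast, is cut from a hairpin by Drosha and Dicer and silences messenger RNAs through its seed, bases 2 to 8.

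The 4 snoRNA sequences are shown because the snoRNA rows of the locus, and part of its miRNA row, cover them. They lie on the minus strand of mm10, their sequences come from the GENCODE vM21 transcripts, and the capitals mark the C box motif TGATG and the D box motif CTGA.
Snord32a: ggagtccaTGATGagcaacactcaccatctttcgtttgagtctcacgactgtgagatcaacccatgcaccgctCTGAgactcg
Snord33: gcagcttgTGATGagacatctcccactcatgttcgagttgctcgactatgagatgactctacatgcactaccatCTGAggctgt
Snord34: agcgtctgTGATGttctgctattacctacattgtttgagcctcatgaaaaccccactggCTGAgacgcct
Snord35a: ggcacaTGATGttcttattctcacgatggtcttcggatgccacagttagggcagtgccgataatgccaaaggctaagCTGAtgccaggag

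Each of the 4 holds TGATG within its first 20 bases and CTGA within its last 20, read on the transcribed strand. The same was true of 69 of the 82 rows named Snord (84.1%) and of 355 of all 1507 snoRNA rows (23.6%). Such a match describes the letters and is not proof of a working box. Snord32a (chr 7, 45127382 to 45127464, 83 bases) lies in intron 2 of the transcript Rpl13a-201. Snord33 (chr 7, 45126864 to 45126947, 84 bases) lies in intron 4, Snord34 (chr 7, 45126601 to 45126670, 70 bases) in intron 5 and Snord35a (chr 7, 45126346 to 45126435, 90 bases) in intron 6. Snord33 overlaps an exon in 4 of the 19 annotated transcripts of the gene. Among the 5446 rows with a sequence, no other shared a run of 30 bases with Snord32a, Snord34 or Snord35a, and for Snord33 the 1 row that did was mmu-mir-5121. Among the 4, Snord32a and Snord33 were the most alike, with 64.4% identity over the alignment, and the other pairs had 47.8% to 59.5%.

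**Figure D1:**
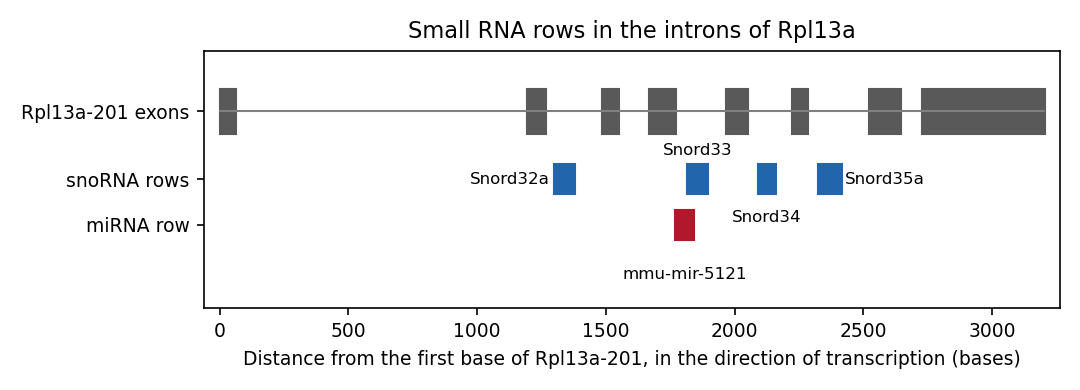
Map of the Rpl13a locus. The x axis is the distance in bases from the first base of Rpl13a-201 in the direction of transcription, grey boxes are its 8 exons, blue boxes the snoRNA rows and the red box the miRNA row; each snoRNA lies in an intron of its own and mmu-mir-5121 overlaps Snord33.

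Snord32a and Snord33 are known to guide methylation of neighbouring positions of the small subunit ribosomal RNA, and their sequences are shown again with the longest run that pairs with it (Watson-Crick or G-U pairs) in capitals. Below them stands the facing stretch of the 18S row, read as the reverse complement of the annotated strand, with the bases that both snoRNAs can pair in capitals.
Snord32a pairing stretch: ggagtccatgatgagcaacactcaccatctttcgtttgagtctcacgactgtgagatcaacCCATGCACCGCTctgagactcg
Snord33 pairing stretch: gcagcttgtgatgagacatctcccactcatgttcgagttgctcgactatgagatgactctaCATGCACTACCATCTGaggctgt
18S stretch: tgggtGGTGGTGCATGg

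The run of Snord32a is 12 bases long, its bases 62 to 73, with 2 G-U pairs, and it ends directly before the D box. That of Snord33 is 16 bases long, its bases 62 to 77, with 4 G-U pairs, and it reaches 3 bases into the D box. The stretches they face, at 1331 to 1342 and 1326 to 1341 of the 1849 bases of the row, share 11 bases. By the known rule of box C/D guides, the rRNA base that faces the fifth snoRNA base before the D box is the one methylated. That base is at position 1335 for Snord32a and 1333 for Snord33, 2 bases apart. Over the 82 Snord rows the longest such run had a median of 12 bases, with 53 rows (64.6%) at 12 or more and 7 (8.54%) at 16 or more, so a run as long as that of Snord32a is common, and one as long as that of Snord33 is not. Snord34 had a run of 13 bases and Snord35a one of 11, and these ended 30 and 29 bases before the D box.

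The annotated miRNA hairpin lies across the upstream end of Snord33, and its sequences show how far the rows coincide. The hairpin (RefSeq, GRCm38.p6, chr 7, 45126918 to 45126991, minus strand) is printed with the bases it shares with Snord33 in capitals, the mature miRNA (45126925 to 45126945) with its seed in capitals, and Snord33 with the mature miRNA in capitals.
mmu-mir-5121 hairpin: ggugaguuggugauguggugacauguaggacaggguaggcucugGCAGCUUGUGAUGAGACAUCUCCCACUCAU
mmu-miR-5121: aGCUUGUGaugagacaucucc
Snord33 with mature miR-5121: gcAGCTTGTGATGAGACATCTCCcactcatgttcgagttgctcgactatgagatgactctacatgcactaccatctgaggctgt

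Of the 74 hairpin bases, 30 are the first 30 of Snord33 and 44 lie upstream of it. All 21 bases of the mature miRNA fall inside Snord33, at its bases 3 to 23, and the C box motif of Snord33 is bases 7 to 11 of the miRNA. The seed GCUUGUG was found in 0 others of the 1738 mature mouse miRNAs in the RefSeq table. All but 1 base of the hairpin lies in intron 4 of Rpl13a-201. That base is in exon 4, and 14 of the 19 transcripts have an exon overlapping the row. The overlap of the rows is 45126918 to 45126947, and a read there can be counted in either row or in both. The rule that the authors used is not given in the sources used here.

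In the MES libraries the snoRNAs of Rpl13a were abundant. Snord32a had 1057 CPM in MES 1 and 950 CPM in MES 2, from 2943 and 2543 counts. Snord35a had 511 and 514 CPM, Snord33 had 219 and 207 CPM, and Snord34 had 178 and 164 CPM. The MES libraries thus lay close together for each of the 4. Together the 4 snoRNAs took 0.197% and 0.183% of the libraries. Snord32a ranked 23 and 24 among all rows, Snord35a 38 and 39, Snord33 62 and 63, and Snord34 66 in both. Per kilobase of row length, the order of mean CPM was Snord32a with 12088, Snord35a with 5692, Snord33 with 2538 and Snord34 with 2444. Snord33 (2464 to 2612) and Snord34 (2343 to 2544) overlapped between libraries, with Snord33 the higher by a little in both.

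In the MEF libraries read by TEsR the same snoRNAs were lower and less even. Snord32a had 135 CPM in mm 1, 179 in mm 2, 159 in pm 1 and 99.3 in pm 2. Snord33 had 106, 145, 148 and 34.5 CPM in the same order, from 395, 547, 525 and 111 counts. The low library for both was pm 2, by far more for Snord33 than for Snord32a. Snord34 had 4.29, 4.51, 2.83 and 2.17 CPM, which rest on 16, 17, 10 and 7 counts and are above the 0.796 to 0.931 CPM that 3 counts stand for in these libraries. Snord35a had 24.7, 27.6, 124 and 9.62 CPM, so that pm 1 stood far above the others. The sum of the 4 was 270 CPM in mm 1, 356 in mm 2, 435 in pm 1 and 146 in pm 2. Per kilobase, the order of the snoRNAs was the same in each of the 4 libraries: Snord32a (mean 1723 CPM), Snord33 (1292 CPM, 410 to 1767), Snord35a (517 CPM, 107 to 1382) and Snord34 (49.3 CPM). The ranges of neighbours overlapped between libraries for the first 3, and Snord34 stood below them all.

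In the MEF libraries read by TruSeq, Snord33 and Snord32a led. Snord33 had 1368 CPM in ATCACG and 872 CPM in CGATGT, from 12261 and 7361 counts. Snord32a had 968 and 895 CPM, so the libraries differed more for Snord33 than for Snord32a. Snord34 had 135 and 111 CPM and Snord35a 96.2 and 82.9 CPM. Per kilobase, mean CPM was 13334 for Snord33 (10379 to 16288) and 11222 for Snord32a (10788 to 11657), whose ranges overlap and whose order differed between the libraries, then 1761 for Snord34 and 995 for Snord35a. The 4 snoRNAs took 0.257% and 0.196% of the libraries, and the lower of these lay just below MES 1.

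**Figure D2:**
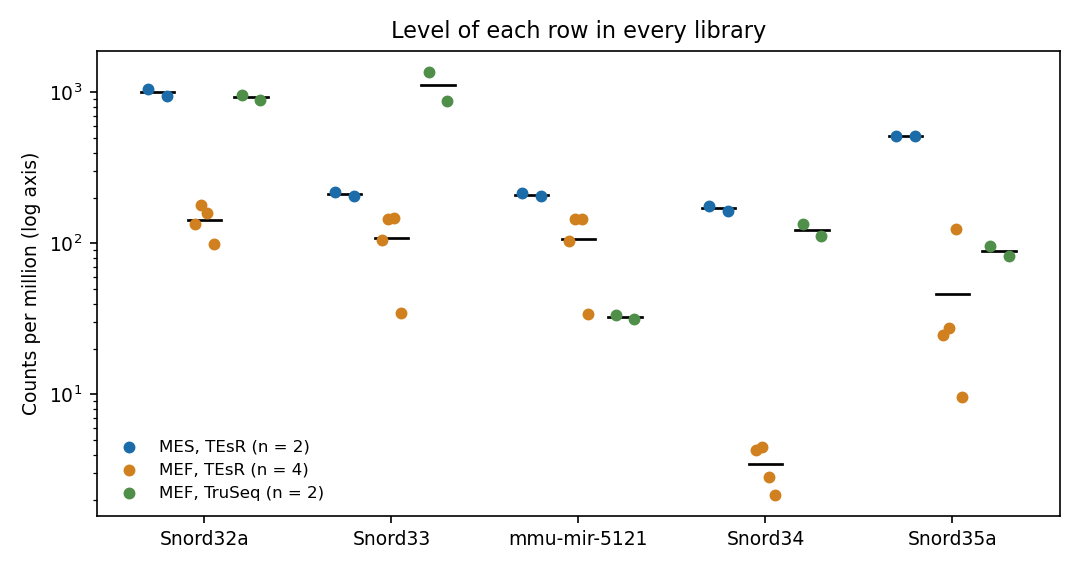
Level of the 5 Rpl13a rows in each library. The y axis is CPM on a log scale, 1 point is 1 library, colours are the 3 groups and horizontal bars are group means; Snord34 is lowest in MEF TEsR, at 2.17 to 4.51 CPM, and mmu-mir-5121 is lowest in TruSeq, at 31.6 and 33.4 CPM.

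MES cells were compared with MEFs within TEsR. The groups differ in cell type, in the conditional TRF2 allele and Rosa26-CreERT2 that the MEFs carry, and in the induction of 2 of the 4 MEF samples, and these cannot be told apart. All 5 rows of the locus were higher in MES and none of their groups overlapped. By edgeR's quasi-likelihood test with Benjamini-Hochberg adjustment over the 273 rows tested, 5 of 5 rows rose in MES, against 43.6% of all rows called higher and 75.1% called in either direction. The largest change was that of Snord34, with a log2 fold change of 6.37 ± 0.44 (SE; 82.7-fold; edgeR adjusted p = 1.74e-06). Snord35a rose by 4.43 ± 0.69 (SE; 21.6-fold; edgeR adjusted p = 1.80e-04) and Snord32a by 3.58 ± 0.37 (SE; 11.9-fold; edgeR adjusted p = 1.11e-05). Snord33 rose least, by 1.78 ± 0.50 (SE; 3.43-fold; edgeR adjusted p = 0.00772). The row of mmu-mir-5121, which shares 30 bases with it, also rose by 1.78 ± 0.50 (SE; edgeR adjusted p = 0.00781) and is no second measurement.

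These log2 fold changes include edgeR's scaling by trimmed mean of M-values, so they differ from ratios of CPM. The median of all rows tested was 0.45, and the locus median, which counts mmu-mir-5121 beside Snord33, was 3.58. Of the 150 snoRNA rows tested in the same fit, 93 were higher and 21 lower in MES, with a median of 2.63. With scaling by library size alone the median of all rows was -0.38 and Snord33 differed by 0.97 (edgeR adjusted p = 0.140), and so did mmu-mir-5121 by 0.97 (edgeR adjusted p = 0.140). With snoRNA rows alone, chosen after seeing the data, the median was 0.92 and Snord33 differed by 0.13 (edgeR adjusted p = 0.756), below the median. The call for Snord33 was also lost without MEF mm 1 (1.46, edgeR adjusted p = 0.0625), MES 1 (1.5, edgeR adjusted p = 0.126) or MES 2 (1.77, edgeR adjusted p = 0.0543). Without the same libraries the call for mmu-mir-5121 was lost too (1.45, edgeR adjusted p = 0.0636, without MEF mm 1, 1.5, edgeR adjusted p = 0.126, without MES 1, and 1.76, edgeR adjusted p = 0.0552, without MES 2). The calls for Snord32a, Snord34 and Snord35a held under each of the 12 alternatives run for this comparison, but their sizes moved. With library size alone the log2 fold changes were 2.81 for Snord32a, 5.61 for Snord34 and 3.46 for Snord35a, and with snoRNA rows alone they were 1.95, 4.72 and 2.74. Without pm 1, where Snord35a was high, its log2 fold change was 5.27 ± 0.52 (SE; edgeR adjusted p = 1.56e-04).

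Other snoRNAs of ribosomal protein genes were set beside the locus. Of 58 further rows inside such genes, 35 were tested, 21 rose and 7 fell in MES, with a median log2 fold change of 2.13. Of 78 further rows named Snord, 66 were tested, 39 rose and 10 fell, with a median of 2.39. So most of the tested rows of either list were also higher in MES. The 4 rows of the first list with the highest mean CPM did not move as one. Snord68, in Rpl13, rose by 1.2 ± 0.26 (SE; edgeR adjusted p = 0.00160) and AC161199.1, in Rpl3, by 3.39 ± 0.39 (SE; edgeR adjusted p = 2.25e-05). Snord4a, in Rpl23a, fell by 3.01 ± 0.51 on the log2 scale (SE; edgeR adjusted p = 3.25e-04). Gm26202, in Rpl17, differed by -0.66 ± 0.32 (SE; edgeR adjusted p = 0.0820).

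The composition of the locus does not depend on the scaling, since its rows come from the same library. As a share of the counts on the 5 rows, Snord33 made up 10.1% ± 0.0629 (SD, n = 2) of MES and 25.5% ± 4.49 (SD, n = 4) of MEF TEsR, and the groups did not overlap. The share of Snord34 was 8.10% ± 0.0879 (SD, n = 2) in MES, but in MEF TEsR it was 0.936% ± 0.328 (SD, n = 4), and Snord35a took 24.3% ± 1.24 (SD, n = 2) and 9.72% ± 7.82 (SD, n = 4). Neither overlapped. The row of mmu-mir-5121 followed Snord33, with 9.98% ± 0.103 (SD, n = 2) against 25.2% ± 4.44 (SD, n = 4). For Snord32a, MES had 47.5% ± 1.32 (SD, n = 2), MEF TEsR had 38.6% ± 11.8 (SD, n = 4), and these overlapped. Each share without overlap had an exact two-sided permutation p of 0.133, the smallest that 2 against 4 libraries can give, and Snord32a had an exact permutation p of 0.4. The total counts mmu-mir-5121 beside Snord33. With that row left out, Snord32a took 52.8% in MES and 51.3% in MEF TEsR on average, a difference of 1.52 percentage points rather than 8.90.

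Snord32a counts per Snord33 count were 4.82 and 4.59 in MES and 1.27, 1.23, 1.07 and 2.88 in MEF mm 1, mm 2, pm 1 and pm 2. Snord35a counts per Snord34 count were 2.87 and 3.13 in MES and 5.75, 6.12, 44 and 4.43 in the MEF libraries in that order. The value of 44 in pm 1 rests on 440 counts of Snord35a and 10 of Snord34. The counts of these rows therefore did not keep 1 ratio between these libraries. In TruSeq ATCACG and CGATGT, Snord35a counts per Snord34 count were 0.712 and 0.744, and Snord32a counts per Snord33 count were 0.707 and 1.03. The ratios in MEFs thus also differed between the TEsR and TruSeq libraries. For Snord32a per Snord33 the gap was small, with 1.07 in pm 1 against 1.03 in CGATGT. Whether the RNAs themselves differed in ratio was not tested.

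**Figure D3:**
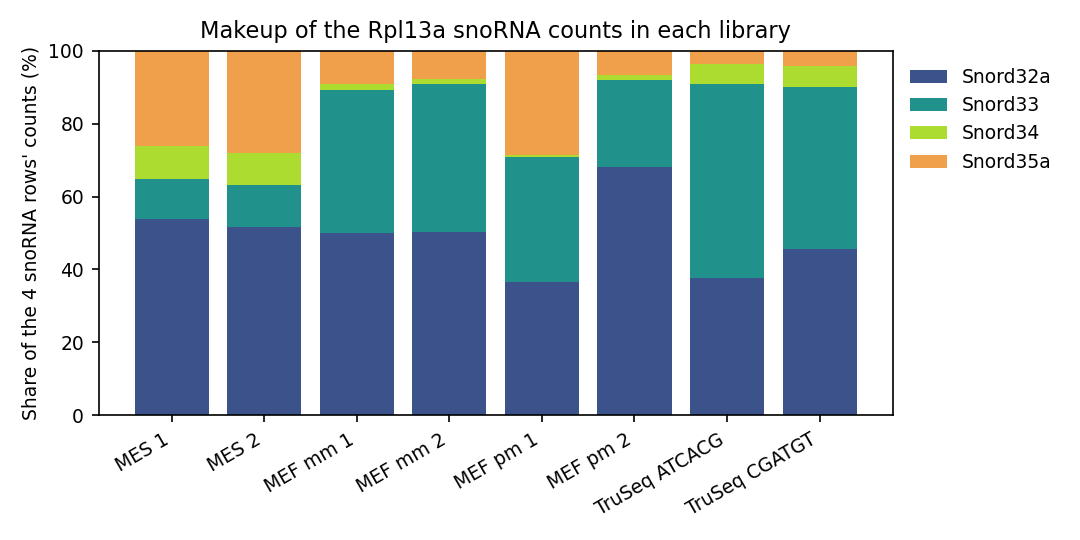
Makeup of the Rpl13a snoRNA counts in each library. Each stacked bar is 1 library and its parts are the shares of the 4 snoRNA rows, in percent, with mmu-mir-5121 left out of the total; on this base Snord33 holds 11.2% on average in MES, 34.5% in MEF TEsR and 48.9% in TruSeq, and Snord35a stands at 28.6% in pm 1.

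MEFs read by TEsR were compared with MEFs read by TruSeq, the comparison of methods that the series is built on. Method, instrument, count table and the mix of induced and uninduced cells move together here and cannot be told apart. The MEF TEsR libraries are the same as in the comparison with MES. By edgeR, 3 of the 5 rows were lower in TEsR, against 55.7% of all 352 rows tested, and 1 was higher, against 32.4% of all. Those 4 of 5 rows stand beside 88.1% of rows called in either direction. Snord34 fell by 4.51 ± 0.55 on the log2 scale (SE; edgeR adjusted p = 6.40e-06), Snord33 fell by 2.80 ± 0.53 (SE; edgeR adjusted p = 2.60e-04) and Snord32a fell by 2.07 ± 0.42 (SE; edgeR adjusted p = 4.46e-04). The row of mmu-mir-5121 rose by 2.32 ± 0.63 (SE; edgeR adjusted p = 0.00333). Snord35a differed by -0.55 ± 0.69 (SE; edgeR adjusted p = 0.454), with groups that overlapped, since pm 1 lay above both TruSeq libraries.

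The median of all rows tested was -2.42, the locus median was -2.07, and so the falls of Snord32a and Snord33 lay near the median row. Of the 47 tested rows in other ribosomal protein genes, 31 fell and 8 rose, with a median of -3.77, and of the 73 other Snord rows 51 fell and 10 rose, with a median of -3.49. With snoRNA rows alone, Snord32a differed by 0.46 (edgeR adjusted p = 0.212), Snord33 by -0.23 (edgeR adjusted p = 0.646) and Snord35a by 2.08 (edgeR adjusted p = 0.0220), against a median of -2.24. With DESeq2, Snord35a differed by 0.039 (DESeq2 adjusted p = 0.964). Without pm 1, Snord35a fell by 1.42 (edgeR adjusted p = 0.0387). Snord34 and mmu-mir-5121 kept their direction and their call in each alternative run, though Snord34 fell by 1.97 with snoRNA rows alone. Without TruSeq ATCACG, the library with more Snord33, Snord33 fell by 2.00 (edgeR adjusted p = 0.0106).

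In the locus shares, Snord33 was lower in TEsR (25.5% against 48.2% ± 6.28, SD, n = 2, in TruSeq), as was Snord34 (0.936% against 5.39% ± 0.282, SD, n = 2). Snord35a was higher, at 9.72% against 3.93% ± 0.325 (SD, n = 2), and so was mmu-mir-5121, at 25.2% against 1.43% ± 0.215 (SD, n = 2). The difference for Snord35a, 5.79 percentage points, was 1.89 without pm 1, whose share was 21.4%. These 4 had groups without overlap and an exact permutation p of 0.133. Snord32a, with 38.6% against 41.1% ± 5.46 (SD, n = 2), overlapped and had an exact permutation p of 0.8. With mmu-mir-5121 left out of the total, Snord32a was instead higher in TEsR, by 9.59 percentage points (51.3% against 41.7%).

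MES read by TEsR and MEFs read by TruSeq differ in cell type, genotype, induction, method, instrument and count table, which cannot be told apart. They share all their libraries with the comparisons above. By edgeR, 4 of 5 rows were higher in MES, against 36.6% of the 352 rows tested, and 1 was lower, against 50.0% of all, with 86.6% of rows called in either direction. Snord35a rose by 3.88 ± 0.22 (SE; edgeR adjusted p = 1.31e-06), mmu-mir-5121 by 4.06 ± 0.23 (SE; edgeR adjusted p = 1.52e-06), Snord34 by 1.83 ± 0.23 (SE; edgeR adjusted p = 1.37e-04) and Snord32a by 1.47 ± 0.16 (SE; edgeR adjusted p = 6.92e-05). Snord33 fell by 1.05 ± 0.26 (SE; edgeR adjusted p = 0.00648). The median of all rows was -1.06. Among other ribosomal protein gene rows 17 rose and 27 fell of 48 tested (median -1.37), and among other Snord rows 29 rose and 34 fell of 73 (median -0.36). In the locus shares of these groups, given above, none of the 5 rows overlapped, and 2 against 2 libraries give an exact two-sided permutation p of 0.333 at the least.

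For Snord32a and Snord34 this call rests on the scaling. Snord32a had overlapping CPM in these groups, and with library size alone it differed by 0.11 (edgeR adjusted p = 0.555). Snord34 then differed by 0.47 (edgeR adjusted p = 0.0791), against a median of all rows of -2.42 on that scale, on which 101 rows were called higher and 219 lower rather than 129 and 176. The fall of Snord33 lost its call with DESeq2 (-0.66, DESeq2 adjusted p = 0.149), with snoRNA rows alone (-0.27, edgeR adjusted p = 0.370), without MES 1 (-1.11, edgeR adjusted p = 0.142) and without MES 2 (-0.78, edgeR adjusted p = 0.242). The calls for Snord35a and mmu-mir-5121 held in each alternative run, with 2.52 and 2.7 under library size alone.

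**Figure D4:**
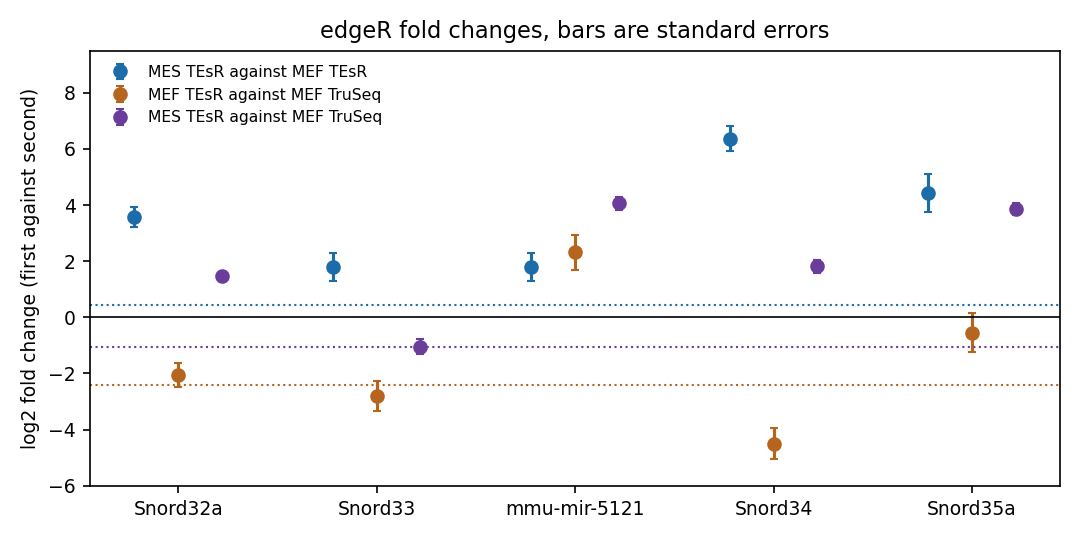
Log2 fold changes of the 5 Rpl13a rows in the 3 comparisons. Points are edgeR estimates with bars of 1 SE on a log2 axis, dotted lines mark the median of all rows tested in each comparison; Snord34 ranges from 6.37 in MES against MEF TEsR to -4.51 in MEF TEsR against TruSeq.

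The TEsR and TruSeq libraries also differed in how the row of mmu-mir-5121 stood to Snord33. Method, instrument, count table and induction differ together between them, and which of these matters was not tested. In MEF mm 1, mm 2, pm 1 and pm 2 it had 387, 546, 516 and 110 counts where Snord33 had 395, 547, 525 and 111. In MES it had 602 and 549 counts where Snord33 had 611 and 554. In each TEsR library the rows were thus within 9 counts of each other. In TruSeq it had 299 and 267 counts where Snord33 had 12261 and 7361.

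Expressed in percent of the Snord33 counts, mmu-mir-5121 stood at 98.0, 99.8, 98.3 and 99.1 in the MEF TEsR libraries, and at 98.5 and 99.1 in MES. In TruSeq it stood at 2.44 in ATCACG (95% exact Clopper-Pearson interval 2.17 to 2.73) and 3.63 in CGATGT (3.21 to 4.08). The mean over MEF TEsR libraries was 98.8 ± 0.831 (SD, n = 4), that over MES was 98.8 ± 0.403 (SD, n = 2) and that over TruSeq was 3.03 ± 0.840 (SD, n = 2). TEsR and TruSeq did not overlap, with an exact two-sided permutation p of 0.133 for MEF TEsR and of 0.333 for MES, the smallest that 4 against 2 and 2 against 2 libraries can give. MES and MEF TEsR overlapped and differed by 0.018 percentage points (exact permutation p = 1.00). Intervals cover counting error only, since reads without molecular identifiers are not independent molecules. The intervals also treat the mmu-mir-5121 counts as a part of the Snord33 counts, which is not known to hold.

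A read that spans Snord33 from its first base also spans the whole of mature miR-5121, as the sequences above show. Counts in the miRNA row therefore cannot be assigned to a miRNA. In TEsR, Snord33 had only 1 to 9 counts more than mmu-mir-5121 in each library, and in TruSeq it had 11962 and 7094 more. Which bases the reads of either row covered was not tested, since the counts carry no read ends. The other pairs of overlapping miRNA and snoRNA rows with at least 10 snoRNA counts in each library were 2, mmu-mir-3535 with Gm24148 and mmu-mir-677 with Mir677. Mir677 has the name of a miRNA and counts as a snoRNA row by its annotated type alone. In both pairs the overlap covers the whole row of that type, and the counts were identical in every library of both methods. These pairs cannot show how a partial overlap, such as that of mmu-mir-5121 with Snord33, was counted in either table.

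**Figure D5:**
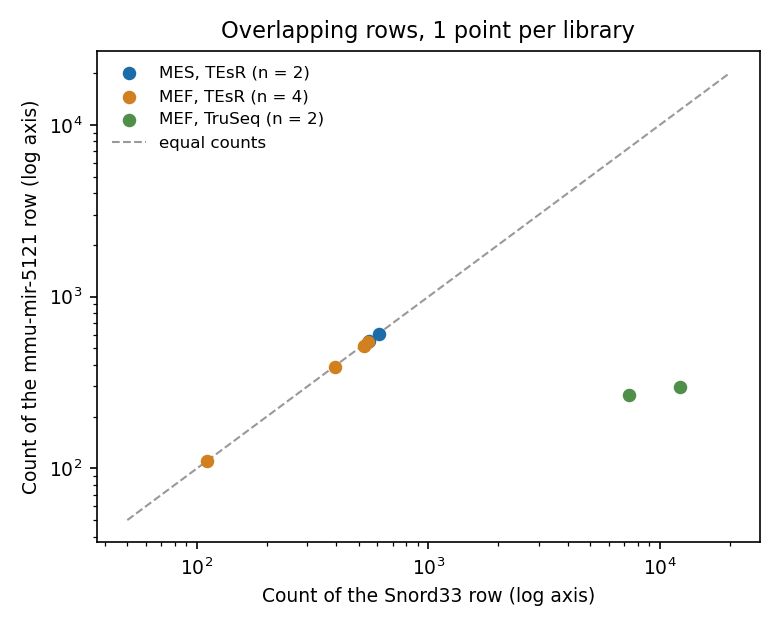
Counts of mmu-mir-5121 against counts of Snord33. Both axes are log scales of read counts, 1 point is 1 library and the line marks equal counts; the 6 TEsR libraries lie on the line and the 2 TruSeq libraries, with 299 and 267 against 12261 and 7361 counts, far below it.

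The rows whose pattern over the 8 libraries was most like that of each named RNA were found by the root mean square difference of log2(CPM + 1), centred on each row's mean, among the 244 rows whose mean reached 10 CPM. These libraries fall into 3 groups, so the measure reads mainly the steps between groups. For Snord32a the nearest were Gm26457 and snoZ196 (0.26 each), Gm25789 (0.27), Snord65 (0.33) and SNORD77 (0.39), against a median of 2.33 over the rows compared. The row of snoZ196 lies inside that of Gm26457, with the same CPM in MES and TruSeq, so these are no separate neighbours. Gm26457 had 1268 and 1063 CPM in MES, 86.0 to 222 in MEF TEsR and 999 and 1068 in TruSeq, close to the levels of Snord32a itself. For Snord33 the nearest were Gm22680 (0.63), Snord47 (0.72), Gm25970 (0.76), Snord57 (0.76) and Gm24494 (0.84), against a median of 2.07.

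Among the rows nearest to mmu-mir-5121 were Gm23130 in Rps12 (0.43), Gm22858 (0.52), Snord11 (0.54) and Gm24920 (0.62), against a median of 2.73. Inside the locus, Snord32a and Snord33 stood 0.99 apart, and mmu-mir-5121 and Snord33, which share sequence, stood 2.17 apart. The widest gap was that between mmu-mir-5121 and Snord34, at 2.77. Each row named above as nearest was nearer to its RNA than any other row of the locus was. The nearest rows were picked as the closest of 244, so this follows largely from the selection and does not set the locus rows apart.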

How the data were processed

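Small RNAs were counted in 8 mouse samples. The authors deposited raw read counts, whole numbers with no normalization, in 2 tables with the same 5518 annotated rows. The tools were bedtools 2.25.0, SAMtools 1.2.1, BWA 0.7.12 and cutadapt, with the mm10 build, per the submitters' processing notes; how strand and overlapping rows were handled is not given in the sources. Columns were assigned by name. The TEsR column names carry a tag that the TruSeq names lack, and whether reads were filtered alike for both tables was not tested. The TruSeq table is named as a control, but groups follow the sample titles. The induced and uninduced MEFs could not be matched to columns and were not compared.

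Counts were tested with edgeR 4.0.16 in R 4.3.3 (quasi-likelihood, robust, trimmed mean of M-values, filterByExpr at 10 counts) and Benjamini-Hochberg adjustment over all rows tested and a threshold of 0.05. The method was tested on simulated data of the MES against MEF TEsR layout only, with the same spread set for every row. That simulation does not measure how the test behaves at the spread of these replicates. All 5 members passed the filter in each comparison. Alternatives were DESeq2 1.42.0, scaling by library size, no filter, duplicate rows once, each library left out, a replicate block and, chosen after seeing the data, snoRNA rows alone. Shares and ratios were compared over libraries with exact two-sided permutation tests (scipy 1.17.1). Positions and gene models are from GENCODE vM21, which holds 5446 of the rows. Replicates differed by more than sampling noise, so none was counted as a duplicate.

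The named rows are those of the locus, the 5 nearest in pattern to Snord32a, Snord33 and mmu-mir-5121, and the 4 most abundant rows in other ribosomal protein genes; 1 of the nearest rows is not reported here. Members and lists were chosen with earlier results of these data known.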

Additional observations from a re-analysis of the deposited data

Results flagged for a closer look

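Of 16 values tested for a library far from the rest of its group, 4 stood out, all in the MEF TEsR group of 4 libraries; chance alone marks about 1 in 20 groups, and the values are related. In library pm 1, Snord35a stood at 124 CPM, and its share of the locus was 21.4%. In the same library the ratio of Snord35a to Snord34 counts was 44. In library pm 2 the ratio of Snord32a to Snord33 counts was 2.88. The gap to the nearest other library was 0.843, 0.922, 0.957 and 0.889 of the group's whole range in these 4 cases, above Dixon's 95% critical value.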

How the results depend on the processing

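Of 332 values under alternatives, 300 were counted as unchanged. For log2 fold changes this means the same direction and the same side of the threshold. For shares and ratios it means the same direction only, and for row counts a value near the main one. With snoRNA rows alone, 72 rows were higher and 47 lower in MES against MEF TEsR (119 and 86 with all rows), 53 were higher in MEF TEsR against TruSeq (114 with all rows), and 75 were higher and 112 lower in MES against TruSeq (129 and 176). That fit has fewer rows and also another scaling: the snoRNA rows alone had 93 higher and 21 lower, 23 higher, and 63 higher and 138 lower in the fits of all rows. With snoRNA rows alone, Snord32a (0.46) and Snord35a (2.08) in MEF TEsR against TruSeq reversed, as did Snord35a with DESeq2 (0.039). The locus share of Snord32a in MEF TEsR minus TruSeq, -2.45 percentage points, turned to 9.59 with mmu-mir-5121 left out of the total, and ranged from -8.00 to 1.41 with single libraries left out, turning without pm 1 (1.28) or CGATGT (1.41). The ratio of mmu-mir-5121 to Snord33 in MES minus MEF TEsR, 0.018, ranged from -0.267 to 0.359 with single libraries left out, turning without mm 1 (-0.255), pm 1 (-0.151) or MES 2 (-0.267), and was -22.96 over the sum of the locus snoRNAs. The cause was not tested. A replicate block in MES against MEF TEsR gave 117 rows higher and 77 lower and changed no call of the locus. Its log2 fold changes were 3.6 (Snord32a), 1.78 (Snord33), 6.38 (Snord34) and 4.66 (Snord35a). Deviations of same-numbered libraries correlated at -0.0895 to -0.0476 over 251 rows. The deviations of the MES libraries mirror each other, so these values cannot show whether the numbers pair the libraries. No paired analysis was possible with TruSeq because its columns carry no replicate number. Where a group was left with 1 library, that library was assumed to vary like the others. Depth limits Snord34 in MEF TEsR, with 7 to 17 counts.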
